A study of Mus musculus with 7 samples.

Results

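The miR-99 and miR-100 family of the mouse was followed across all 7 small RNA libraries of the series. Its members were found in the tables by name: the 5p and 3p arms of the hairpins Mir99a, Mir99b and Mir100, which are 6 of the 1908 mature miRNAs listed in the deposited tables. All 6 were present in both tables. miR-99a-5p and miR-100-5p share reads in the authors' counting, so their sum is given beside the single values.

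The libraries come from fluorescence-sorted cells of dissociated embryonic mouse spinal cord. At E10.5, embryos carrying Hb9::gfp, a reporter driven by the promoter of a homeobox gene of motoneurons, were sorted into GFP-positive cells, labelled motoneurons (2 libraries), and GFP-negative cells, labelled as non-motoneuron spinal cells (2 libraries). At E12.5 there was 1 library each of GFP-positive motoneurons from the same Hb9::gfp line, of V2a interneurons and of V3 interneurons. The V2a cells were tdTomato-positive cells of Chx10::cre;Rosa26::LSL::tdTomato embryos, and the V3 cells were tdTomato-positive cells of Sim1::cre;Rosa26::LSL::tdTomato embryos. In these lines Cre removes a stop cassette, so a cell stays labelled if Cre was active in it or in an ancestor. No embryo was described as carrying a mutation of a miRNA gene, and neither the number of embryos per library nor the origin of the replicates was stated. The p-values therefore measure the spread between libraries, which may be technical.

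A miRNA acts by guiding an Argonaute protein to messenger RNAs that pair with its seed, the short run of bases near its 5′ end. miRNAs with one seed are grouped into a family because they can bind the same sites. A hairpin precursor is cut into a duplex of a 5p and a 3p arm, of which usually one, the guide, is kept and the other, the passenger, is degraded. The miR-99 and miR-100 family is old in animals, sits beside let-7 and miR-125 genes, and is known for repressing Mtor and other genes of growth signalling. All 6 mature sequences, from RefSeq (GRCm38.p6), are printed because the grouping of the members and the limits of the counting follow from them. Capitals mark the seed, bases 2 to 8 from the 5′ end.

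mmu-miR-99a-5p: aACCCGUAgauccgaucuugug
mmu-miR-100-5p: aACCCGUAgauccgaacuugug
mmu-miR-99b-5p: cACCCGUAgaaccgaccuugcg
mmu-miR-99a-3p: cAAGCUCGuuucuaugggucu
mmu-miR-99b-3p: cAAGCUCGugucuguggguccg
mmu-miR-100-3p: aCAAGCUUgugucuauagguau

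The seed ACCCGUA was carried by 3 mature mouse miRNAs of the RefSeq table, the 3 5p arms. miR-99a-5p and miR-100-5p differ at 1 of 22 bases, U16A, with miR-99a-5p as the reference and positions counted from 1 at the 5′ end. miR-99b-5p differs from miR-99a-5p at 4 bases, A1C, U11A, U16C and U21C. The authors' table puts miR-99a-5p and miR-100-5p in 1 bundle of shared reads and miR-99b-5p in a bundle of its own. The 3p arms of Mir99a and Mir99b share the seed AAGCUCG with each other, and miR-100-3p has the seed CAAGCUU, which was found in no other mature miRNA of that table. All arms are 22 nt long except miR-99a-3p, at 21 nt, so length has little effect on a comparison of levels between members. Whether other differences in sequence affect the counts was not tested.

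The 3 hairpins lie at separate loci, all on the plus strand of GRCm38. The arms of Mir99a are at chr16:77598940-77598961 (5p) and chr16:77598977-77598997 (3p). Mir99a is within an intron of the long noncoding RNA Mir99ahg and also lies inside the span of the antisense gene Gm11146. The arms of Mir100 are at chr9:41531437-41531458 and chr9:41531471-41531492, within introns of the noncoding transcripts 3110039I08Rik and Gm49317 and opposite an exon of the antisense lincRNA Gm48742. The arms of Mir99b are at chr17:17830194-17830215 and chr17:17830232-17830253, within an intron of the protein-coding gene Spaca6. The precursors of Mir99a and Mir100 are printed in the same way, with both arms in capitals, because the ratio of the arms is described further on.

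Mir99a: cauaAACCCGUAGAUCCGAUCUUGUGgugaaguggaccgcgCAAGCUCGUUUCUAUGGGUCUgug
Mir100: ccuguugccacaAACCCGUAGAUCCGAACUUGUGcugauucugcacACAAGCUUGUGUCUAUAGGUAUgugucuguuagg

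The E10.5 libraries held 493260 to 802732 reads and the E12.5 libraries 3603328 to 4605461, as read from the value of 1 read. The lists of other cell types moved with the E10.5 groups: all 8 mesenchymal and smooth muscle miRNAs were lower in motoneurons, with a summed level of 81346 and 94145 RPM (reads per 1000000) in GFP-negative cells against 1570 and 424 RPM in motoneurons. All 3 tested skeletal muscle miRNAs were lower (3796 to 4192 RPM against 130 to 355), as were all 3 sensory neuron miRNAs (9171 to 9535 RPM against 1971 to 2325). Of the neuronal list, 1 of 4 miRNAs was higher and 0 were lower. The endothelial sum was 676 to 977 RPM in GFP-negative cells and 295 to 508 RPM in motoneurons, and the epithelial sum 170 to 342 RPM and 53.6 to 89.2 RPM. The blood sum stayed at or below 30.9 RPM, with miR-144-3p at 0 in both motoneuron libraries. The motoneuron list, the 3 miR-218 arms, was high in the libraries so labelled, and 2 of 2 tested arms were higher. At E10.5 the 3 arms summed to 177957 and 200357 RPM in motoneurons and 6623 and 7320 RPM in GFP-negative cells. At E12.5 they summed to 104218 TPM in motoneurons against 7560 in V2a and 7284 in V3. The lists were chosen with earlier results of these data known, so they are no independent check of the labels. The lists hold no miRNA that marks V2a or V3 cells, so those labels were not checked.

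The 3 guides were among the most abundant miRNAs of every library. miR-99a-5p ranked from 5th to 15th, miR-100-5p from 6th to 18th and miR-99b-5p from 5th to 25th across the 7 libraries. The 6 arms together held 3.58% and 4.66% of the GFP-negative libraries and 4.98% and 5.99% of the E10.5 motoneuron libraries. At E12.5 they held 14.2% of the motoneuron library and 11.7% of each interneuron library. The stages sit in tables that were scaled separately, so a change with stage cannot be told apart from one of table.

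The first comparison asked how the family differs between motoneurons and the GFP-negative cells at E10.5. Those GFP-negative libraries carried the mesenchymal, muscle and sensory neuron miRNAs described above. The near-identical pair miR-99a-5p and miR-100-5p rose in motoneurons, while miR-99b-5p, with the same seed, did not pass the test and had a lower mean there. Of the 6 members, 4 passed the abundance filter, and 2 of these, the arms of the pair, were called higher and none lower. Those 2 arms share reads, so their calls are not independent of each other. Among all 492 tested miRNAs, 11.6% were called higher and 30.7% lower, 42.3% in all, and the median log2 fold change was -0.34.

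In GFP-negative cells the summed pair stood at 25719 RPM in replicate 1 and 31485 RPM in replicate 2, and in motoneurons at 40954 and 49536 RPM. Both motoneuron libraries lay above both GFP-negative libraries. The means were 45245 ± 6068 RPM (SD, n = 2) and 28602 ± 4077 RPM (SD, n = 2). The pair was thus 1.58-fold higher in motoneurons (0.66 ± 0.17 on the log2 scale, SE; adjusted p = 0.0186 in limma). The call was lost in limma without motoneuron replicate 1 (log2 fold change 0.80, adjusted p = 0.0538) and without motoneuron replicate 2 (0.53, adjusted p = 0.143), where a single library stands for the group and is assumed to vary like the other. It was also lost when all miRNAs with any read were tested (limma adjusted p = 0.0530). The mesenchymal and muscle miRNAs took a far larger part of the GFP-negative libraries; with totals taken without them the log2 fold change was 0.53 (limma adjusted p = 0.0471).

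Taken alone, miR-99a-5p measured 14108 and 17205 RPM in GFP-negative cells and 21911 and 27939 RPM in motoneurons. Its difference was 0.67 ± 0.18 on the log2 scale (SE; adjusted p = 0.0238 in limma), and 0.53 (adjusted p = 0.0556) on totals without the mesenchymal and muscle miRNAs. miR-100-5p measured 11611 and 14280 RPM in GFP-negative cells and 19043 and 21597 RPM in motoneurons, a difference of 0.66 ± 0.16 on the log2 scale (SE; adjusted p = 0.0170 in limma). Neither overlapped between the groups. Over all tested miRNAs, the motoneuron libraries lay above the GFP-negative ones without overlap in 25.0% and below them in 48.6%. Without motoneuron replicate 2 both lost the call (limma adjusted p = 0.162 and 0.120), and without motoneuron replicate 1 miR-100-5p did (adjusted p = 0.0658). The share of miR-99a-5p within the pair was 54.9% and 54.6% in GFP-negative cells and 53.5% and 56.4% in motoneurons, so it did not separate the groups. How the authors divided reads that fit both members is not given in the sources used here, and this share depends on it.

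miR-99b-5p measured 8907 and 13438 RPM in GFP-negative cells, and 7650 and 8969 RPM in motoneurons. The groups overlapped, since the lower GFP-negative library lay within the range of the motoneurons. The difference of the means, 8310 ± 933 RPM (SD, n = 2) against 11172 ± 3204 RPM (SD, n = 2), came to -0.40 ± 0.22 on the log2 scale (SE; adjusted p = 0.182 in limma). GFP-negative replicate 2 was 1.51 times replicate 1 for this miRNA, the wider of the replicate gaps among the 3 guides. Without GFP-negative replicate 1 the log2 fold change was -0.70 (limma adjusted p = 0.00459), and without replicate 2 it was -0.10 (adjusted p = 0.672), so the call rests on which of these libraries is used.

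Its passenger arm, miR-99b-3p, was the only 3p arm above the abundance filter. It measured 1125 and 1662 RPM in GFP-negative cells and 1155 and 1322 RPM in motoneurons. Both motoneuron values lay between the GFP-negative values, and the difference was -0.15 ± 0.23 on the log2 scale (SE; adjusted p = 0.642 in limma). Its direction turned under several other scalings, given in the closing section.

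The remaining arms were too rare for the test. miR-99a-3p was seen in 10 and 6 reads in GFP-negative cells (12.9 and 11.1 RPM) and in 19 and 6 reads in motoneurons (23.7 and 12.2 RPM). miR-100-3p was seen in 1 and 0 reads in GFP-negative cells and in 2 and 6 reads in motoneurons. Where no read was seen, as many as 3 may have been missed, equal to between 3.74 and 6.08 RPM in these libraries, so a difference in miR-100-3p was not detectable at this depth. Intervals and floors on reads cover counting error only, because PCR copies are not independent molecules.

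**Figure D1:**
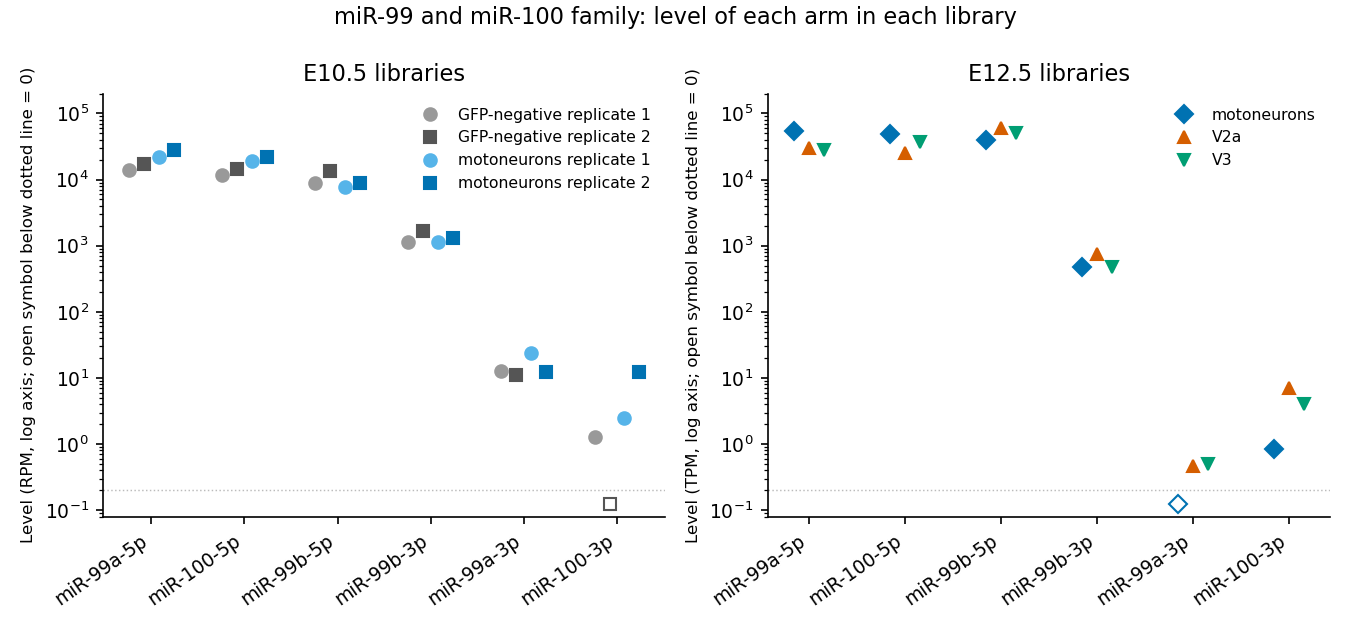
Level of each of the 6 arms in each library, on log axes: RPM for the 4 E10.5 libraries (left) and TPM for the 3 E12.5 libraries (right), 1 point per library, with open symbols below the dotted line for 0. The 3 guides lie between 7650 and 27939 RPM at E10.5 and between 24982 and 60904 TPM at E12.5, miR-99b-3p lies between 476 and 1662, and the other 3p arms stay at or below 23.7.

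A ratio taken inside a library does not depend on scaling between libraries, so the balance of the guides was compared in that way. For each read of the pair there were 0.346 and 0.427 reads of miR-99b-5p in the GFP-negative libraries. In the E10.5 motoneuron libraries there were 0.187 and 0.181. The groups did not overlap, and the gap between them was wider than that within either. Levels of single miRNAs also separated the groups in 25.0% (higher in motoneurons) and 48.6% (lower) of all tested miRNAs. No such share was taken for ratios. The mean log2 ratio was -2.44 ± 0.03 (SD, n = 2) in motoneurons and -1.38 ± 0.21 (SD, n = 2) in GFP-negative cells, a 2.09-fold lower ratio in motoneurons (log2 difference -1.06, exact permutation p = 0.33, two-sided, which is the smallest p that 2 libraries against 2 allow). With any single library left out the log2 difference ran from -1.21 to -0.91. miR-99b-5p thus made up 25.7% and 29.9% of the reads of the 3 guides in GFP-negative cells and 15.7% and 15.3% in motoneurons. In sorted populations, fewer cells that hold a miRNA and less of it per cell cannot be told apart.

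The second comparison set motoneurons beside V2a and V3 interneurons at E12.5. V2a cells are excitatory interneurons with axons on their own side of the cord, and V3 cells are excitatory interneurons that mostly project across the midline. With 1 library per population there was no test, and the intervals printed are 95% counting intervals. The pair was higher in motoneurons than in either interneuron library, and miR-99b-5p was lower. Among 523 miRNAs that reached 10 TPM in at least 1 library, 37.1% were higher in motoneurons than in both interneuron libraries and 33.8% were lower than in both. The median log2 ratio over these miRNAs was -0.16 for motoneurons over V2a and 0.25 for motoneurons over V3.

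The summed pair measured 101851 TPM in motoneurons, 55310 TPM in V2a and 65648 TPM in V3. The ratio of motoneurons to V2a was 1.84 (1.83 to 1.85), and to V3 1.55 (1.54 to 1.56). The second ratio depended on the scaling: with totals taken without the 5 most abundant miRNAs, which then include miR-99b-5p itself, its log2 value went from 0.63 to -0.20, and that of motoneurons over V2a from 0.88 to 0.23. miR-99a-5p was at 53775 TPM in motoneurons, with 30328 in V2a and 28230 in V3. On those totals its log2 ratio to V2a went from 0.83 to 0.18 and to V3 from 0.93 to 0.093. miR-100-5p was at 48076 TPM in motoneurons, with 24982 in V2a and 37418 in V3, and its log2 ratios went from 0.94 to 0.30 and from 0.36 to -0.48 in the same way.

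The members of the pair were ordered differently in the interneurons. miR-99a-5p was nearly level between V2a and V3 (ratio 1.07, 1.07 to 1.08), a direction that turned under other scalings (log2 ratio 0.10, and -0.39 by the median of ratios). miR-100-5p was lower in V2a than in V3 (ratio 0.668, 0.663 to 0.673), and its log2 ratio stayed between -1.08 and -0.58 under the scalings tried. Inside each library, miR-99a-5p made up 52.8% of the pair in motoneurons, 54.8% in V2a and 43.0% in V3, so V3 was the library in which miR-100-5p exceeded miR-99a-5p. As at E10.5, these values of single members depend on how shared reads were divided, which the counting intervals do not cover.

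miR-99b-5p measured 39655 TPM in motoneurons, 60904 TPM in V2a and 51306 TPM in V3. It was the most abundant of the 3 guides in V2a and V3 and the least abundant in motoneurons. The ratio of motoneurons to V2a was 0.651 (0.647 to 0.655) and to V3 0.773 (0.768 to 0.778), and both stayed below 1 under every scaling tried. With totals taken without the 5 most abundant miRNAs, of which it is one, the log2 ratios went from -0.62 to -1.27 and from -0.37 to -1.21. The ratio of V2a to V3 was 1.19 (1.18 to 1.19), and its direction turned with the median of ratios and with TMM factors. miR-99b-3p measured 476 TPM in motoneurons, with 752 in V2a and 483 in V3, so it was lower in motoneurons than in V2a (ratio 0.634, 0.597 to 0.672) while its ratio to V3 (0.987, 0.925 to 1.05) had a counting interval that includes 1. The log2 ratio to V3 moved with the scaling, from -0.02 to -0.26 by the median of ratios, -0.23 with TMM factors and -0.86 without the 5 most abundant miRNAs.

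Inside the libraries, each read of the pair was met by 0.389 reads of miR-99b-5p in motoneurons (0.387 to 0.392), 1.10 in V2a (1.10 to 1.11) and 0.782 in V3 (0.777 to 0.786). The motoneuron ratio was 2.83-fold below that of V2a and 2.01-fold below that of V3. V2a was 1.41-fold above V3. miR-99b-5p made up 28.0% of the 3 guides in motoneurons, 52.4% in V2a and 43.9% in V3. The motoneuron library thus had the lowest share of miR-99b-5p at each stage. The GFP-negative cells of E10.5 are a mixture, whose part in its ratio was not tested. The mesenchymal and muscle sums at E12.5 stayed between 198 and 307 TPM and between 63.0 and 221 TPM.

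**Figure D2:**
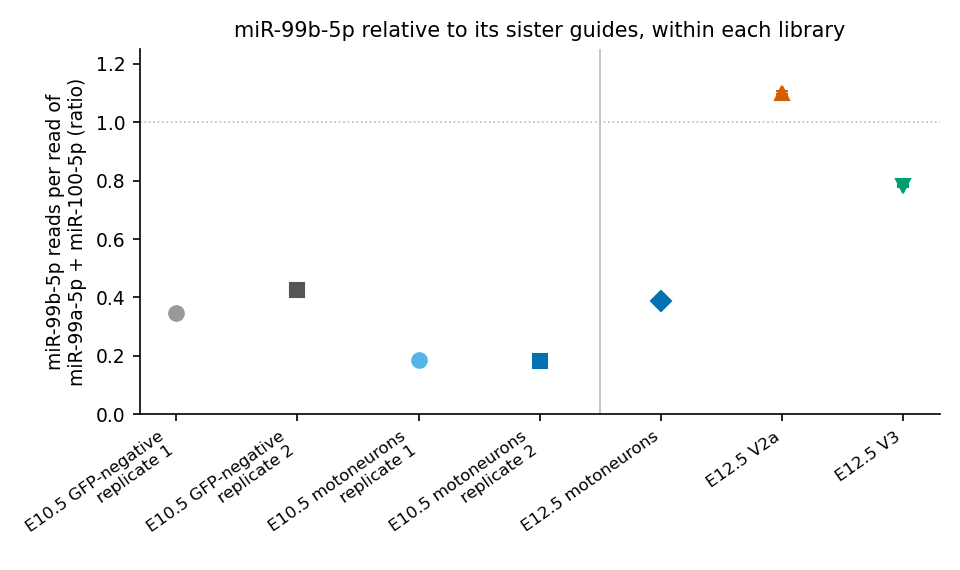
Reads of miR-99b-5p per read of the summed pair, a ratio on a linear axis that starts at 0, with 1 point per library and bars for the 95% counting interval (mostly smaller than the symbols). The E10.5 motoneuron points, 0.187 and 0.181, lie below the GFP-negative points, 0.346 and 0.427, and at E12.5 motoneurons (0.389) lie below V3 (0.782) and V2a (1.10).

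The rare arms gave few reads at E12.5 in spite of the greater depth. miR-99a-3p was seen in 0 reads in motoneurons and in 2 reads each in V2a and V3. In the motoneuron library 0 reads allow up to 3 missed reads, equal to 0.833 RPM. miR-100-3p was seen in 3 reads in motoneurons, 32 in V2a and 17 in V3. Its level in motoneurons was 0.119 times that in V2a (0.0232 to 0.379) and 0.207 times that in V3 (0.0388 to 0.714), the opposite order to miR-100-5p from the same hairpin. The ratio of V2a to V3 was 1.74, with an interval that includes 1 (0.939 to 3.34).

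The share of each hairpin's reads that fell in the 3p arm was then compared between the loci. The loci differed by orders of magnitude: Mir99b kept a passenger that could be measured in every library, and Mir99a and Mir100 hardly any. For Mir99b the 3p share was 11.2% (exact binomial interval 10.53 to 11.94) and 11.0% (10.3 to 11.7) in GFP-negative cells, and 13.1% (12.3 to 13.9) and 12.8% (11.9 to 13.8) in E10.5 motoneurons. Both motoneuron libraries lay above both GFP-negative libraries. Among 61 hairpins with at least 100 reads over both arms in every library, 9 (14.8%) had a higher share of the minor arm in both E10.5 motoneuron libraries and 16 a lower one.

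At E12.5 the Mir99b 3p share was 1.19% (1.13 to 1.24) in motoneurons, 1.22% (1.18 to 1.26) in V2a and 0.932% (0.892 to 0.974) in V3. The mean share was 10.8 times higher at E10.5 than at E12.5, the seventh largest fall among those 61 hairpins, whose median ratio was 0.969 and of which 45.9% had a lower share at E12.5. The neighbouring hairpin Mir125a was 9th, with a ratio of 7.16. Here too the stage cannot be told apart from the table. For Mir99a and Mir100 summed, which avoids the split of shared reads, the 3p share was 0.0550% and 0.0354% in GFP-negative cells and 0.0638% and 0.0491% in E10.5 motoneurons. It was 0.000829% (0.000171 to 0.00242) in E12.5 motoneurons, 0.0137% (0.00947 to 0.0191) in V2a and 0.00696% (0.00419 to 0.0109) in V3. The interval of the E12.5 motoneurons lay below those of V2a and V3, which overlapped each other.

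**Figure D3:**
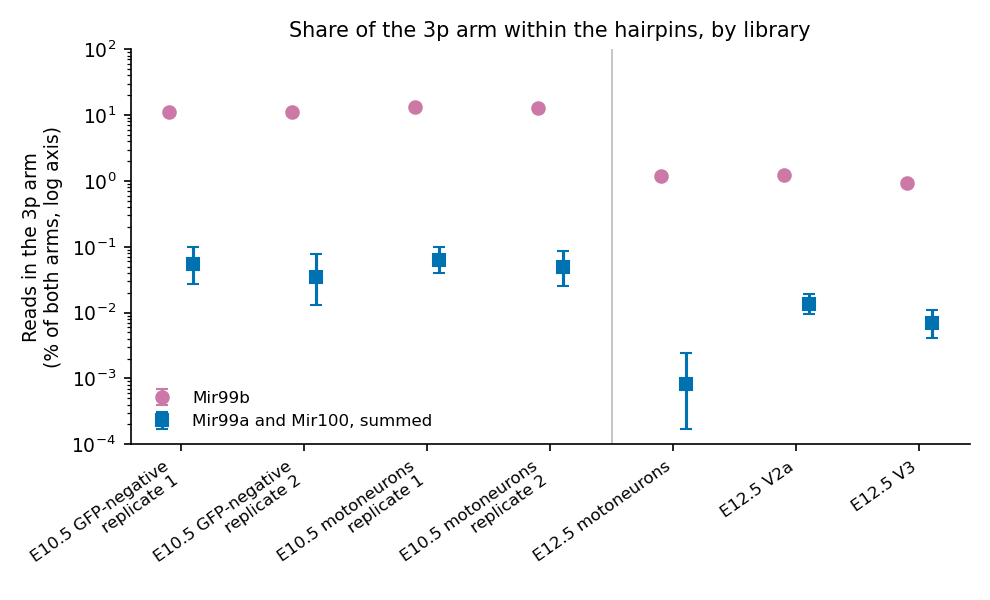
Share of reads in the 3p arm, in percent on a log axis, for Mir99b and for Mir99a and Mir100 summed, with 1 point per library and exact 95% binomial intervals. Mir99b runs from 11.0% to 13.1% at E10.5 and from 0.932% to 1.22% at E12.5, and the sum of Mir99a and Mir100 stays at or below 0.0638% in all 7 libraries.

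Each family hairpin sits next to a let-7 and a miR-125 hairpin on the same strand. Mir99a lies 656 bases from Mirlet7c-1 and 47272 bases from Mir125b-2. Mir100 lies 5211 bases from Mirlet7a-2 and 50421 bases from Mir125b-1. Mir99b lies 94 bases from Mirlet7e and 554 bases from Mir125a. let-7 miRNAs are known for promoting differentiation and for rising late in development, and miR-125 is the vertebrate relative of lin-4, a timing gene of the worm.

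At E10.5 no neighbour was called higher on the deposited scaling. Of 11 neighbouring arms, 10 were tested, 0 were called higher and 1 lower in the limma fit, against 11.6% and 30.7% of all tested miRNAs, and 0 of the 10 reached an unadjusted p of 0.05 in the higher direction. Their median log2 fold change was -0.28, against -0.34 over all tested miRNAs. The untested arm, let-7a-2-3p, was seen in 1 to 3 reads in each E10.5 library. At E12.5 it was seen in 0 reads in motoneurons, 5 in V2a and 1 in V3. The arms let-7a-5p, let-7c-5p and let-7e-5p lie in 1 bundle of 12 miRNAs that share reads, and the first 2 can also come from other loci, so their values are uncertain. The arm called lower was let-7a-5p. It measured 7157 and 7468 RPM in GFP-negative cells and 4052 and 4264 RPM in motoneurons, without overlap (-0.81 ± 0.14 on the log2 scale, SE; adjusted p = 0.00429 in limma). let-7c-5p, whose hairpin is the nearest to Mir99a, measured 745 and 916 RPM in GFP-negative cells and 930 and 959 RPM in motoneurons, without overlap (0.19 ± 0.19 on the log2 scale, SE; adjusted p = 0.454 in limma). It was called higher with totals taken without the 5 most abundant miRNAs (0.57, limma adjusted p = 0.0379, against 1.04 for the pair) and with quantile normalization (0.90, adjusted p = 0.0140, against 0.56 for the pair).

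miR-125b-5p, made by both Mir125b-1 and Mir125b-2 and so a neighbour of both pair members, measured 4148 and 5836 RPM in GFP-negative cells and 4441 and 4138 RPM in motoneurons. The groups overlapped (log2 fold change -0.20, limma adjusted p = 0.457). They also overlapped for miR-125b-1-3p (-0.23, limma adjusted p = 0.515), miR-125b-2-3p (-0.10, adjusted p = 0.806) and let-7c-1-3p (-0.37, adjusted p = 0.564). At the Mir99b locus, let-7e-5p had a log2 fold change of -0.21 (limma adjusted p = 0.315) and miR-125a-5p one of -0.32 (adjusted p = 0.274). The passenger arms let-7e-3p (-1.06, limma adjusted p = 0.0638) and miR-125a-3p (-0.89, adjusted p = 0.0771) missed the threshold. In both, and also in let-7e-5p and miR-125a-5p, the motoneuron libraries lay below the GFP-negative libraries without overlap. The same held for 48.6% of all tested miRNAs.

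At E12.5 miR-125b-5p differed more between the populations than the pair did. It measured 15094 TPM in motoneurons, with 5695 in V2a and 4356 in V3, which is 2.65 times V2a (2.61 to 2.69) and 3.46 times V3 (3.41 to 3.52). Without the 5 most abundant miRNAs in the totals its log2 ratios went from 1.41 to 0.76 and from 1.79 to 0.96, still above those of the pair. let-7c-5p, from the Mir99a locus and a second one, was at 12421 TPM in motoneurons, with 8285 in V2a and 18345 in V3, so its order was not that of miR-99a-5p. The arm that only Mirlet7c-1 makes, let-7c-1-3p, was at 38.3 TPM in motoneurons, with 8.67 in V2a and 23.3 in V3. miR-125b-1-3p was at 1041 TPM in motoneurons, with 824 in V2a and 615 in V3. miR-125b-2-3p was at 85.0 TPM in motoneurons, with 63.8 in V2a and 46.2 in V3. The shared-read arm let-7a-5p was at 5730 TPM in motoneurons, with 4349 in V2a and 5523 in V3. Some of these directions turned under other scalings, given in the closing section.

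At the Mir99b locus the neighbours went apart. let-7e-5p was lower in motoneurons (2403 TPM) than in V2a (4008) and V3 (3805), with ratios of 0.600 (0.584 to 0.615) and 0.632 (0.615 to 0.649). The motoneuron level of this shared-read arm was thus the lowest of the 3, as for miR-99b-5p. let-7e-3p, which lies in a bundle of its own, was seen in 20, 80 and 18 reads, at 5.56 TPM in motoneurons, with 17.8 in V2a and 4.33 in V3. It was lower in motoneurons than in V2a (ratio 0.312, 0.183 to 0.521), and its ratio to V3 had an interval that includes 1 (1.28, 0.653 to 2.61). miR-125a-5p was higher in motoneurons (6397 TPM) than in V2a (4809) and V3 (4683), with ratios of 1.33 and 1.37, which fell below 1 with totals taken without the 5 most abundant miRNAs (log2 ratios -0.23 and -0.39). That miR-125a-5p was shifted upward in motoneurons relative to miR-99b-5p and let-7e-5p does not depend on the scaling of the libraries.

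**Figure D4:**
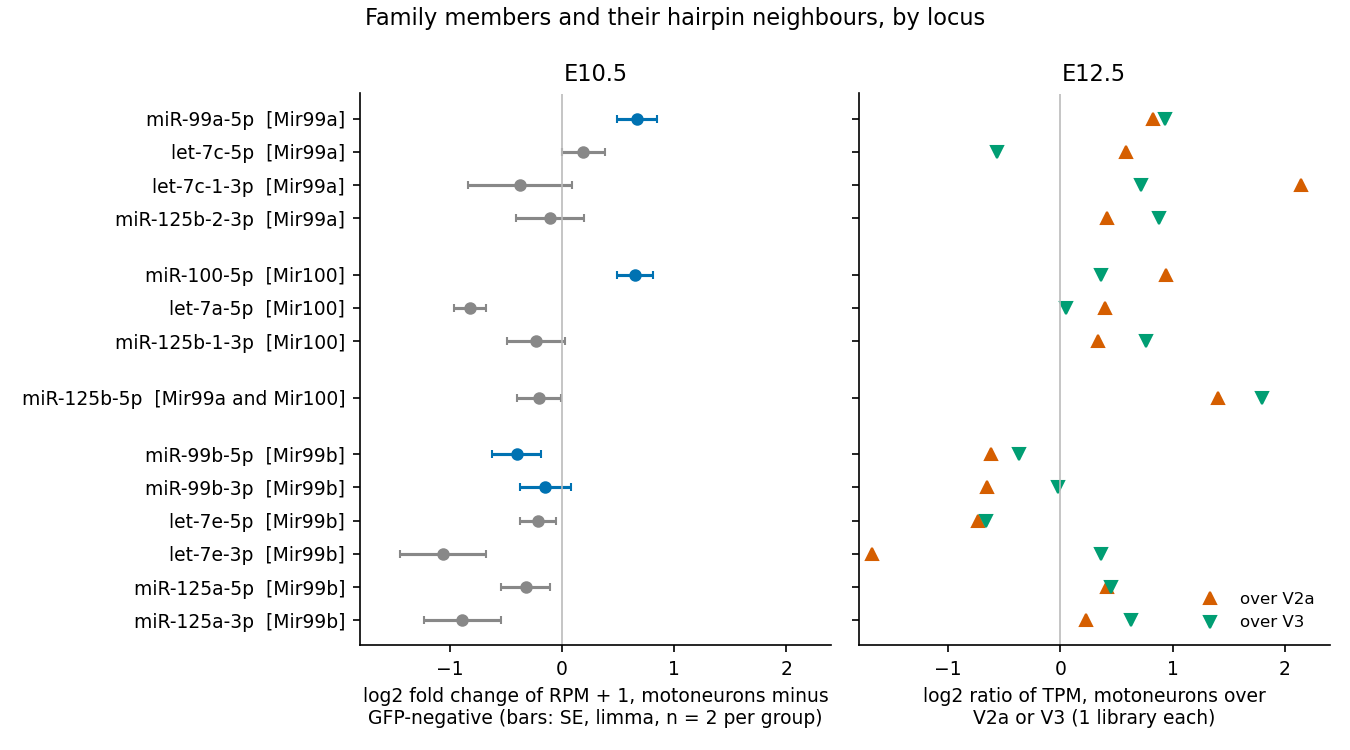
Log2 differences of the tested family members (blue, left panel) and of their hairpin neighbours (grey), grouped by locus; left, motoneurons minus GFP-negative at E10.5 on log2(RPM + 1) with bars for the limma SE (n = 2 per group), right, the log2 ratio of TPM of motoneurons over V2a and over V3 at E12.5, 1 library each. miR-99a-5p (0.67) and miR-100-5p (0.66) lie to the right at E10.5 while their tested neighbours lie between -0.81 and 0.19, and at E12.5 miR-99b-5p and let-7e-5p lie left of 0 and miR-125b-5p right of it.

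The miRNAs whose pattern was most like that of the members were taken from 358 candidates, by Pearson's r over the 7 libraries on log2(value + 1) with each table centred on its own mean. All miRNAs of a library share its depth and its sort, so r is a description. The summed pair was most like miR-467h (r = 0.978) and miR-467e-5p (0.959), each in a bundle of 5 miRNAs that share reads, then miR-149-5p (0.947), miR-218-2-3p (0.945) and miR-770-3p (0.937). Of these, miR-149-5p measured 268 and 386 RPM in GFP-negative cells, 585 and 649 RPM in E10.5 motoneurons, and 2419 TPM in E12.5 motoneurons against 856 in V2a and 786 in V3. miR-218-2-3p was at 0 in GFP-negative replicate 1 and in V2a, and at 0.72 TPM in V3. miR-467h was at 3.58 to 10.9 TPM at E12.5. The r of miR-218-2-3p and miR-467h thus rests in part on low values.

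miR-99b-5p was most like miR-6236 (r = 0.954), miR-32-5p (0.951), miR-712-5p (0.929), miR-136-5p (0.904) and miR-6238 (0.885). miR-32-5p measured 198 and 267 RPM in GFP-negative cells, 158 and 201 RPM in E10.5 motoneurons, and 69.5 TPM in E12.5 motoneurons, 87.4 in V2a and 85.6 in V3. None of these 5 was called in the limma fit at E10.5, with adjusted p from 0.161 to 0.509. Between the pair and miR-99b-5p themselves, r was -0.594 over the same 7 libraries.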

How the data were processed

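Small RNA libraries were made with a NEBNext kit from total RNA of sorted cells, per the labels' protocols. The submitters' processing notes name Bowtie2 without a version, and which program counted the reads, on which build and annotation, is not given in the sources used here. As deposited, the values of E10.5 are RPM, each library summing to 1000000. Those of E12.5 have no unit in the header and were taken to be the authors' FPKM, because low values times the RefSeq mature length fell on whole multiples of 1 step, and were rescaled to TPM, so each library sums to 1000000. In bundles of a single row, low values lay within 0.05 of a whole read in 97.3% to 100.0% of cases (E10.5) and in 74.4% to 81.7% (E12.5). Reads of rows that share a bundle are fractional, so a count-based test was not used.

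Groups and replicate numbers came from the sample titles. For E10.5, limma 3.58.1 (R 4.3.3, trend, two-sided) was fitted to log2(RPM + 1) over 492 miRNAs that reached 15.2 RPM (10 reads at median depth) in at least 2 libraries, with Benjamini-Hochberg adjustment at 0.05. Fold changes on this scale understate those of low miRNAs. The pair's sum replaced its 2 values in a refit of the whole table. E12.5 values were compared as ratios with exact counting intervals. Alternatives were other scalings, pseudocounts and filters, a replicate block and each library left out. The miRNAs named are all members, all hairpin neighbours in the tables and the 5 most alike by correlation. The family as a subject, the marker lists and the neighbours were chosen with earlier results of these data known; within the family, membership follows from the names. Host genes come from GENCODE M21.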

Additional observations from a re-analysis of the deposited data

How the results depend on the processing

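The rise of the summed pair kept its direction under every alternative run, with log2 fold changes from 0.52 to 1.04. It lost its call when only miRNAs at 0 in all libraries were removed (0.66, limma adjusted p = 0.0530), and over the fits that leave out 1 library it ran from 0.52 to 0.81. The replicate block gave limma adjusted p = 0.00662 for the pair and 67 miRNAs higher and 162 lower overall. Replicate numbers were correlated over 492 miRNAs at 0.26 between the groups, with only 2 pairs, so they were not taken as pairing. The block changed no call of a member; in this balanced layout it cannot move a difference, such as the -1.06 of the within-library ratio. Over all miRNAs, 57 were called higher and 151 lower; median of ratios gave 85 and 118, TMM factors 83 and 126, totals without the 5 most abundant 105 and 115, quantile normalization 110 and 98, totals without mesenchymal and muscle miRNAs 43 and 165, and removal of all-zero miRNAs alone 34 and 126. Leaving out 1 library gave 27 to 48 higher and 106 to 125 lower, the fewest higher without a motoneuron library. The median log2 fold change was -0.34, -0.07 (median of ratios), -0.12 (TMM), 0.03 (without the 5 most abundant) and 0.10 (quantile).

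Directions of values that had not passed the test turned as follows, as log2 fold changes at E10.5. By the median of ratios, miR-99b-3p was at 0.13, miR-125b-2-3p at 0.17, miR-125b-5p at 0.078, miR-125b-1-3p at 0.044 and let-7e-5p at 0.065. With TMM factors, miR-99b-3p was at 0.076, miR-125b-2-3p at 0.12, miR-125b-5p at 0.024 and let-7e-5p at 0.012. Without the 5 most abundant, miR-99b-3p was at 0.23, miR-125b-2-3p at 0.27, miR-125b-5p at 0.18, miR-125b-1-3p at 0.14, let-7e-5p at 0.17 and miR-125a-5p at 0.056. With quantile normalization, miR-99b-3p was at 0.72 (limma adjusted p = 0.0495), miR-125b-2-3p at 0.22, miR-125b-5p at 0.44, miR-125b-1-3p at 0.44, let-7e-5p at 0.60 and miR-125a-5p at 0.43. With 1 library left out, the ranges ran from -0.43 to 0.13 for miR-99b-3p, -0.83 to 0.086 for let-7c-1-3p, -0.31 to 0.105 for miR-125b-2-3p, -0.45 to 0.047 for miR-125b-5p and -0.58 to 0.12 for miR-125b-1-3p, above 0 without GFP-negative replicate 2 and, for miR-125b-2-3p, without motoneuron replicate 2. Of the neighbours, 1 (let-7c-5p) was called higher without the 5 most abundant and 2 (let-7c-5p and let-7e-5p) with quantile normalization, where 0 were called lower; besides let-7a-5p, let-7e-3p was called lower with totals without mesenchymal and muscle miRNAs and miR-125a-3p with the replicate block, 2 in each, and 0 higher and 1 to 2 lower with 1 library left out. The cause was not tested.

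At E12.5 the log2 ratio of the pair in motoneurons over V2a was 0.90 as deposited, 1.13 by the median of ratios, 1.15 with TMM factors and 0.23 without the 5 most abundant; over V3 it was 0.65, 0.39, 0.42 and -0.20. V2a over V3 gave -0.74, -0.73 and -0.44 for the last 3 settings. Without the 5 most abundant, motoneurons over V3 gave miR-100-5p -0.48, let-7c-1-3p -0.12, let-7a-5p -0.78, miR-125b-1-3p -0.078, miR-125a-5p -0.39 and miR-125a-3p -0.21. In the same setting, motoneurons over V2a gave let-7c-5p -0.062, miR-125b-2-3p -0.23, let-7a-5p -0.25, miR-125b-1-3p -0.31 and miR-125a-5p -0.23. On the main TPM scale each of these log2 ratios was positive. Left out are motoneurons over V2a for miR-125a-3p (ratio 1.17, 0.934 to 1.47) and over V3 for let-7e-3p (1.28, 0.653 to 2.61). The counting intervals of both include 1. let-7a-5p over V3 was also -0.19 and -0.16 by the median of ratios and TMM. V2a over V3 turned for miR-99a-5p (-0.39, -0.38 and -0.087 for the same 3 settings) and miR-99b-5p (-0.25 and -0.23 for the first pair of them). The planned edgeR and DESeq2 fits were not run, because 90.16% to 92.55% of low RPM values at E10.5 were whole reads over all miRNAs, short of the nearly all that such fits need. With 1 library per E12.5 population the spread between samples is unknown, and depth limits what can be said of miR-99a-3p and miR-100-3p.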
